A study of Mus musculus with 2 samples.

Results

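The respiratory chain genes of the mouse were followed through 2 single-cell libraries of sorted embryonic brain cells. Members were taken by symbol: all rows whose name starts with mt-Nd, mt-Co, mt-Atp, mt-Cytb, Uqcr or Atp5, with Nduf, a, b, c, s or v and a digit, or with Cox and a digit from 4 to 8, plus Sdha, Sdhb, Sdhc and Sdhd, without pseudogenes. They were 97 of the 31053 features, of which 13 were encoded by mitochondrial DNA and 84 by the nucleus. The symbol Atp5o was carried by 2 features, 1 of them without a UMI (a counted unique molecule) in any cell class described here, so the 97 features had 96 distinct symbols. The rule takes assembled subunits and a few related proteins, such as Atp5s, and leaves out assembly factors and cytochrome c.

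The respiratory chain sits in the inner mitochondrial membrane. Complex I oxidises NADH, complex II oxidises succinate, complex III passes the electrons to cytochrome c, complex IV passes them to oxygen, and complex V uses the proton gradient to make ATP. Complexes I, III, IV and V are mosaics, with catalytic or membrane cores partly encoded by the small circular mitochondrial genome. That genome is transcribed inside the organelle as long precursors that are cut into shorter messages. The other subunits are made from nuclear genes and imported. All complex II subunits are nuclear. Microglia, the resident macrophages of the brain, use both this route and glycolysis for ATP.

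The hypothalamic/thalamic region of CD1 embryos (an outbred mouse stock) was taken at E15.5 and sorted on antibodies to the myeloid surface protein Cd11b (PE) and the leukocyte protein Cd45 (FITC). The control library pooled 10 brains of 1 CD1 dam without the treatment. The stressed library pooled 5 brains of 1 CD1 dam that was placed at 4 °C for 30 min on each of 5 days from E11.5 to E15.5. With 1 pool, 1 dam and 1 library per condition there was no test between conditions, litter and treatment cannot be told apart, and every interval below is an exact 95% interval that covers counting error only.

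The control library held 1156 barcodes and 2833015 UMIs (median 1948 per barcode), and the stressed library 1467 barcodes and 6582188 UMIs (median 3767), with 13 barcode sequences present in both. Cells with at least 500 genes were kept (1068 and 1419) and gated by marker genes into microglia-like cells (653 control, 1139 stressed), border-associated macrophage-like cells (78 and 27) and neural-like cells (202 and 157), with few others. The labels call all cells microglia, so the neural-like cells go against the label. All 12 microglial markers, among them P2ry12 and Tmem119, had UMIs in the microglia-like cells of each library, and so had 10 of the 12 border-associated markers, which summed to 1632 and 1532 CPM beside 8062 and 8250 CPM of the microglial list, with Cd163 and Cd209f at 0. The erythroid list summed to 147 CPM (UMIs scaled to a common total in every class, so that CPM and percent of UMIs are the same measure) in the control and 1482 CPM in the stressed microglia-like cells, and the ribosomal protein genes had a median log2 ratio of 0.21 between the libraries. The share of control and stressed microglia-like cells with Xist and no Y-linked UMI also differed (220 of 653 and 1067 of 1139). A Y-linked UMI and no Xist were found in 130 control cells, and in too few stressed cells to describe. The inferred sex of the pools thus differed together with litter and treatment. Whether these differences or the deeper counts of the stressed library have a part in the results was not tested, except where a matched value is given.

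Because the assay counts one molecule at its 3′ end, a level in CPM does not scale with transcript length, and levels of different genes are compared here on that scale. The 3′ ends of the mitochondrial RNAs were not measured, so such comparisons are uncertain for mitochondrial genes, most of all where they share bases. Members with at least 10 CPM in either library were compared, and a member was called higher or lower past a fixed 1.5-fold, in place of a test.

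The mitochondrial genes lie so close together that some share bases, which bears on how reads are assigned. In the GENCODE annotation of GRCm38, mt-Atp8 (chrM:7766-7969) and mt-Atp6 (chrM:7927-8607), both subunits of the proton channel part of complex V, share 43 bases, and mt-Nd4l (chrM:9877-10173) and mt-Nd4 (chrM:10167-11544), both in the membrane arm of complex I, share 7 bases. The last 60 bases of the upstream gene of each pair are shown on the plus strand, with the shared bases in capitals. The annotated ends of mt-Atp8 and mt-Nd4l fall inside the shared stretches, and an annotated gene end is not a measured 3′ end of an RNA.
mt-Atp8 (chrM:7910-7969): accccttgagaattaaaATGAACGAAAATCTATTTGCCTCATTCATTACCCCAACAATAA
mt-Nd4l (chrM:10114-10173): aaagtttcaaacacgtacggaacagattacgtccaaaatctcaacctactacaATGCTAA
Counts within these pairs are therefore uncertain between the partners, while their sums are less affected. mt-Nd6 (chrM:13552-14070) was the only member on the minus strand of this genome, and 14 of its bases lie opposite mt-Nd5 (chrM:11742-13565). Of the 97 members, 32 had a near-identical stretch in another annotated gene (at least 95% identity over at least 150 bases), 9 of them mitochondrial. For the mitochondrial members no such gene was itself a counted feature. It was one for 5 nuclear features: Atp5l, both Atp5o features, Cox5b and Ndufb9, whose counts are uncertain for that reason. For Ndufb9 and both Atp5o features the counted gene overlaps on the same strand, so the stretch is shared exon bases, not a copy elsewhere. Ndufb2 and Ndufb8 share 145 and 134 exon bases with another gene on the same strand, under the 150-base minimum.

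In microglia-like cells the mitochondrially encoded messages stood higher in the stressed library, and the nuclear messages of the same complexes did not. Of the 13 mitochondrial members, 8 were at least 1.5 times higher in the stressed library and none lower, against 3.33% higher and 8.13% lower among all 7654 features of at least 10 CPM. Their median log2 ratio was 0.63 (range −0.20 to 0.89). The count of 8 was 5 with a stricter gate, 6 with cells of at most 5% mitochondrial UMIs and 11 with TMM or DESeq2 scaling. mt-Nd2, mt-Nd5, mt-Co2 and mt-Atp6 were past the limit in all 16 alternatives in which single members were computed, mt-Atp8 in 15, mt-Nd1 and mt-Cytb in 14 and mt-Co1 in 13. Of the 84 nuclear members, 76 reached 10 CPM, 0 were higher and 1 was lower, and their median log2 ratio was −0.04, beside −0.09 over all features. With a minimum of 50 CPM the members were 8 higher and 0 lower, against 1.68% and 3.18% of 2673 features. Scaling by TMM or DESeq2 size factors instead of total UMIs raised every log2 ratio by 0.11, which gave 0.74 for the mitochondrial and 0.07 for the nuclear median.

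Summed over the class, the 13 mitochondrial members accounted for 39522 of 1680847 UMIs in the control and 188525 of 5212275 in the stressed library. That is 2.35% and 3.62% of all UMIs, a log2 ratio of 0.62 (0.61 to 0.64). The nuclear members accounted for 3.36% and 3.24% (log2 ratio −0.05, −0.07 to −0.04). The control cells thus held 0.700 mitochondrially encoded UMIs per nuclear UMI (0.691 to 0.709), and the stressed cells 1.12 (1.11 to 1.12), so that the order of the summed levels was turned around.

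**Figure D1:**
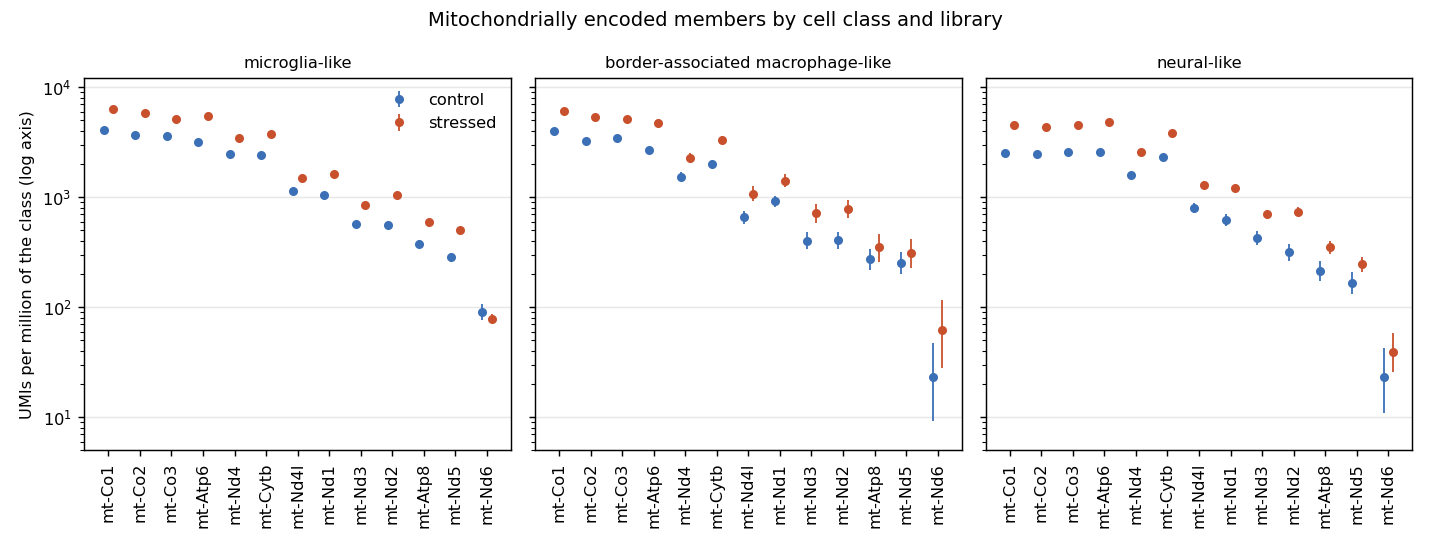
Level of each mitochondrially encoded member (CPM of the class, log axis) in the 3 main cell classes, control in blue and stressed in red, with exact 95% intervals of counting error as bars. In microglia-like cells 12 of the 13 members lay higher in the stressed library and mt-Nd6 did not (90.4 against 78.9 CPM).

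The complex IV core was the most abundant group. mt-Co1, the subunit with the haem and copper site that reduces oxygen, was at 4120 CPM in control and 6283 CPM in stressed microglia-like cells (log2 ratio 0.61, 0.57 to 0.65). mt-Co2, which takes electrons from cytochrome c, was at 3635 and 5814 CPM (0.68, 0.64 to 0.72). mt-Co3, a structural core subunit, was at 3571 and 5159 CPM and stayed just under the 1.5-fold limit (0.53, 0.49 to 0.57). All 3 intervals lay well above 0 and near one another.

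In complex V, mt-Atp6, part of the proton channel, was at 3203 CPM in the control and 5453 CPM in the stressed library (log2 ratio 0.77, 0.73 to 0.81), the largest shift among the 6 mitochondrial members above 2000 CPM in the control. Its overlapping partner mt-Atp8 was at 374 and 598 CPM (0.68, 0.55 to 0.80). mt-Cytb, the membrane-bound electron carrier and only mitochondrial subunit of complex III, was at 2438 and 3774 CPM (0.63, 0.58 to 0.68). These 3 members were past the limit.

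The 7 mitochondrial subunits of complex I, all in its proton-pumping membrane arm, were the most uneven group. mt-Nd2 rose from 562 to 1043 CPM (log2 ratio 0.89, 0.79 to 0.99), mt-Nd5 from 285 to 504 CPM (0.82, 0.68 to 0.97) and mt-Nd1 from 1042 to 1639 CPM (0.65, 0.58 to 0.73). These were the 3 complex I members past the limit. mt-Nd3 was at 575 and 857 CPM (0.57, 0.47 to 0.68), mt-Nd4 at 2486 and 3475 CPM (0.48, 0.43 to 0.53) and mt-Nd4l at 1132 and 1494 CPM (0.40, 0.33 to 0.47). The joined pair mt-Nd4l and mt-Nd4 thus sat at the low end, also as a share of all mitochondrial UMIs: mt-Nd4l took 4.81% (4.60 to 5.03%) of them in control cells and 4.13% (4.04 to 4.22%) in stressed cells.

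How fully the assay captures mt-Nd6 RNA was not measured, so its counts may not give its level. In microglia-like cells mt-Nd6 stood apart from the other 12 in its counts. It had 152 UMIs (90.4 CPM) in control and 411 UMIs (78.9 CPM) in stressed microglia-like cells, a log2 ratio of −0.20 with an interval that spans 0 (−0.47 to 0.08). Its share of mitochondrial UMIs was 0.385% (0.326 to 0.451%) in control cells and 0.218% (0.197 to 0.240%) in stressed cells, and these intervals do not overlap. The log2 ratio stayed between −0.29 and −0.06 in the 16 other ways of processing in which it was computed. mt-Nd6 was not lower in the other classes: border-associated macrophage-like cells held 7 control and 9 stressed UMIs (23.1 and 61.6 CPM), and neural-like cells 10 and 26 (23.0 and 39.5 CPM), with counting intervals that span 0 in both classes (−0.18 to 3.07 and −0.32 to 2.00). The difference of mt-Nd6 between classes was not tested.

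The nuclear subunits had mostly small log2 ratios. Over all 2673 features of at least 50 CPM the 5th and 95th percentiles were −0.52 and 0.37. Of the 35 nuclear complex I members, 0 were higher and 0 lower, with log2 ratios from −0.28 to 0.29. The highest levels were those of Ndufa2 (712 CPM in the control, 586 CPM in the stressed library, log2 ratio −0.28, −0.38 to −0.18) and Ndufa3 (621 and 513 CPM, −0.28, −0.38 to −0.17), both accessory subunits. The highest log2 ratio was that of Ndufv2, a core subunit with an iron-sulphur cluster (120 and 147 CPM, 0.29, 0.06 to 0.52). None of these passed the 1.5-fold limit.

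Complex II, which has no mitochondrial gene, serves as the all-nuclear case. Its 4 subunits were within the limit, with Sdha (the flavoprotein that oxidises succinate) at 64.3 and 57.7 CPM, Sdhb (the iron-sulphur subunit) at 225 and 217 CPM, and the membrane anchors Sdhc at 69.0 and 65.0 CPM and Sdhd at 86.9 and 99.96 CPM. Their summed level was 446 CPM in the control and 439 CPM in the stressed library (log2 ratio −0.02, −0.14 to 0.10). The whole complex was thus at the same summed level within counting error.

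In complex III the 8 nuclear members were within the limit, from −0.16 to 0.36. The small subunits Uqcrq (1080 and 987 CPM, −0.13) and Uqcr11 (857 and 787 CPM, −0.12) were the most abundant. Uqcrfs1, the Rieske iron-sulphur protein that carries the first electron step, was at 99.95 CPM in the control and 128.5 CPM in the stressed library (0.36, 0.12 to 0.62).

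In complex V the 15 nuclear members above 10 CPM were within the limit, from −0.21 to 0.20. Atp5e, the epsilon subunit of the catalytic head, had the highest nuclear level of all (1749 and 1707 CPM, −0.04, −0.10 to 0.03). The 3 genes for the identical mature c-ring subunit were Atp5g2 (1439 and 1245 CPM, −0.21, −0.28 to −0.14), Atp5g1 (910 and 799 CPM, −0.19) and Atp5g3 (426 and 393 CPM, −0.12). All 3 log2 ratios were below 0 and none passed the limit.

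Complex IV held the only nuclear member past the limit. Cox7a1, the heart and muscle form of subunit 7a (chr7:30184144-30186078), had 27 UMIs in the control (16.1 CPM) and 49 UMIs in the stressed library (9.40 CPM), a log2 ratio of −0.77 whose interval reaches almost to 0 (−1.48 to −0.04). At the top, Cox8a was at 1629 and 1592 CPM (−0.03, −0.10 to 0.03) and Cox7c at 1447 and 1363 CPM (−0.09, −0.15 to −0.02). Cox7a2l, which helps complexes III and IV join into supercomplexes, was at 147 and 190 CPM (0.37, 0.17 to 0.58), the largest positive ratio among the nuclear members of at least 10 CPM. Among cells with Xist and no Y-linked UMI the Cox7a1 ratio was −0.33 and within the limit.

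**Figure D2:**
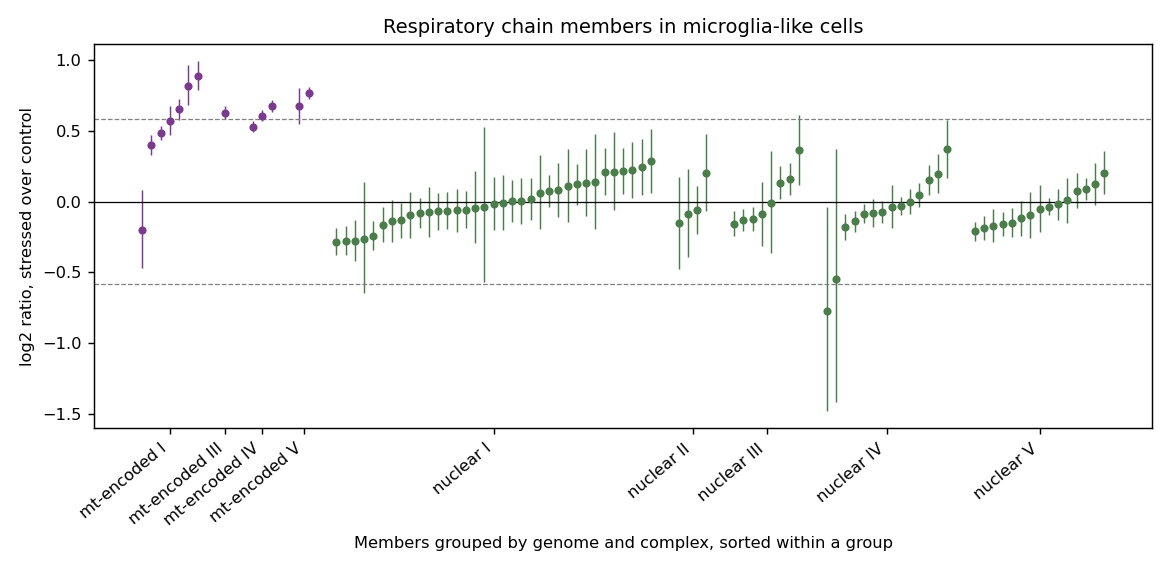
Log2 ratio of stressed over control in microglia-like cells for each member of at least 10 CPM, sorted within its complex, mitochondrially encoded in purple and nuclear in green, bars being exact 95% intervals of counting error and dashed lines the 1.5-fold limits. The mitochondrial members centred on 0.63, the nuclear members on −0.04, with mt-Nd6 and Cox7a1 as the lowest of each kind.

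Set side by side within each complex, the mitochondrial subunits had more UMIs per UMI of their nuclear partners in the stressed library in all 4 complexes that have both. In microglia-like cells complex I held 0.645 mitochondrial UMIs per nuclear UMI in the control (0.629 to 0.661) and 0.987 in the stressed library (0.974 to 0.999). Complex III held 0.611 (0.588 to 0.636) and 0.977 (0.958 to 0.996). Complex IV held 1.16 (1.13 to 1.18) and 1.81 (1.79 to 1.83), and complex V 0.365 (0.354 to 0.376) and 0.648 (0.639 to 0.658). The stressed ratio was 1.53, 1.60, 1.56 and 1.78 times the control ratio in complexes I, III, IV and V. These ratios are taken within a library, so scaling between the libraries does not enter them. The depth of the cells does enter, since the median ratio per microglia-like cell was lower in deeper cells of each library. At 1000 to 2000 UMIs it was 0.891 in control and 1.41 in stressed cells, over all members. The values were 0.700 and 1.40 at 2000 to 4000 UMIs, and 0.476 and 1.11 at 4000 to 8000 UMIs.

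The same direction was seen in the other main classes, at lower levels. Over all members the ratio went from 0.508 in control to 0.902 in stressed border-associated macrophage-like cells, and from 0.392 to 0.725 in neural-like cells. In border-associated macrophage-like cells 9 of 13 mitochondrial members were higher and 0 lower, but the background in this thinly sampled class was wide, with 22.4% of 6631 features higher and 23.5% lower. Of its 75 nuclear members above 10 CPM, 1 was higher (Sdhc, 19 and 15 UMIs) and 5 were lower (Ndufa3, Ndufa10, Ndufa12, Sdha and Cox7a1, with control UMIs of 203, 32, 63, 38 and 15 and stressed UMIs of 62, 6, 20, 10 and 4). These nuclear counts are under the background share and no more is read from them. The monocyte or granulocyte list was at 0 in this class in the control and at 1082 CPM, from 5 of its 12 markers, in the stressed library, and its part in the values was not tested.

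In neural-like cells 12 of the 13 mitochondrial members were higher and 0 lower, against 16.8% higher and 18.6% lower of 9537 features. Neural-like cells without a UMI of Malat1, a nuclear RNA, were 2.48% of the control and 14.6% of the stressed cells. Across the 157 stressed cells the mitochondrial and Malat1 shares had a Spearman rho of −0.35, as a description of cells of 1 library, and 0.15 across the 202 control cells. With the Malat1-free cells left out, the median mitochondrial share per cell was 1.68% in the control and 2.72% in stressed cells, beside 1.68% and 3.05% with them, and their part in the count of members was not tested. mt-Nd2 had the largest ratio (315 and 741 CPM, log2 ratio 1.24, 0.96 to 1.52), followed by mt-Nd1 (620 and 1216 CPM, 0.97, 0.77 to 1.18), and mt-Nd5 was the one within the limit (168 and 247 CPM, 0.56, 0.15 to 0.98). mt-Nd2 was thus the leading or next-to-leading member of complex I in all 3 classes. The 77 nuclear members had a median of −0.08, with Cox6b2 higher (5 and 18 UMIs) and Cox7a1 lower (5 and 4 UMIs). Both of those counts are too small to order the libraries.

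**Figure D3:**
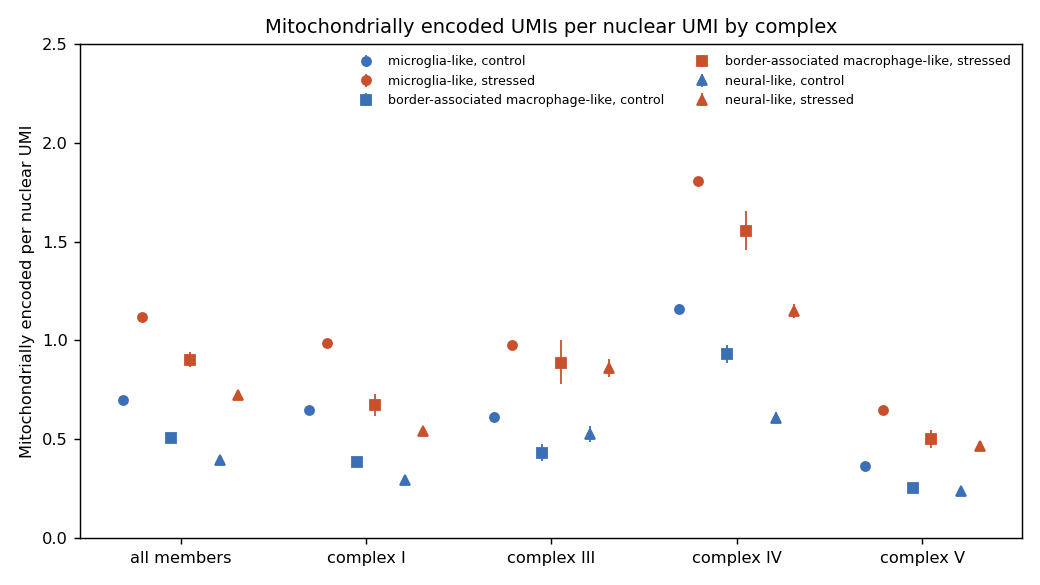
Mitochondrially encoded UMIs per nuclear UMI, over all members and within the 4 complexes that have both, for 3 cell classes (circles microglia-like, squares border-associated macrophage-like, triangles neural-like) and the control (blue) and stressed (red) libraries, with exact 95% intervals. Every red point lies above the blue point of its class, and complex IV has the highest ratios (1.16 and 1.81 in microglia-like cells).

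The shift was spread over the cells. The median cell-wise share of mitochondrially encoded UMIs was 2.32% over the 653 control microglia-like cells (quartiles 1.71 and 3.01%) and 3.56% over the 1139 stressed ones (2.86 and 4.42%). Of the stressed cells, 89.2% lay above the control median, and of the control cells 12.3% lay above the stressed median. The distributions thus overlapped, with 53.4% of stressed cells at or under the 90th percentile of the control cells (3.68%). More mitochondrial than nuclear respiratory UMIs were found in 28.0% of control cells (183 of 653, exact binomial interval 24.6 to 31.6%) and in 64.4% of stressed cells (734 of 1139, 61.6 to 67.2%). In neural-like cells the same shares were 1.98% (4 of 202) and 25.5% (40 of 157). These shares of cells were not matched for depth.

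Because the libraries differed in depth, cells of matched depth were compared. Among microglia-like cells of 1000 to 2000 UMIs the median mitochondrial share was 2.47% in 261 control and 3.20% in 119 stressed cells, a narrower gap than over all cells. Among those of 2000 to 4000 UMIs the median mitochondrial share was 2.31% in 274 control and 3.74% in 449 stressed cells. Among those of 4000 to 8000 UMIs it was 1.98% (86 cells) and 3.62% (450 cells). In these deeper ranges the gap was wider than over all cells, and in all 3 the stressed cells had the higher median. The nuclear share grew with the UMIs of a cell in each library (Spearman rho 0.50 over 653 control and 0.53 over 1139 stressed cells, as a description of cells that share a library and whose share and depth share the same counts). At matched depth it was lower in the stressed library, 2.80% against 2.49% at 1000 to 2000 UMIs, 3.25% against 2.72% at 2000 to 4000 UMIs and 3.81% against 3.23% at 4000 to 8000 UMIs. Summed over such cells the nuclear median log2 ratio was −0.24 at 2000 to 4000 and −0.18 at 4000 to 8000 UMIs. There 0 nuclear members were higher, and 4 of 76 and 3 of 77 were lower. The share and median over all features are not given at these depths. Over cells of all depths 8.13% of features were lower, so no more is read from these counts. The near-equal nuclear sums were taken over cells of all depths, and the part of depth in them was not tested.

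**Figure D4:**
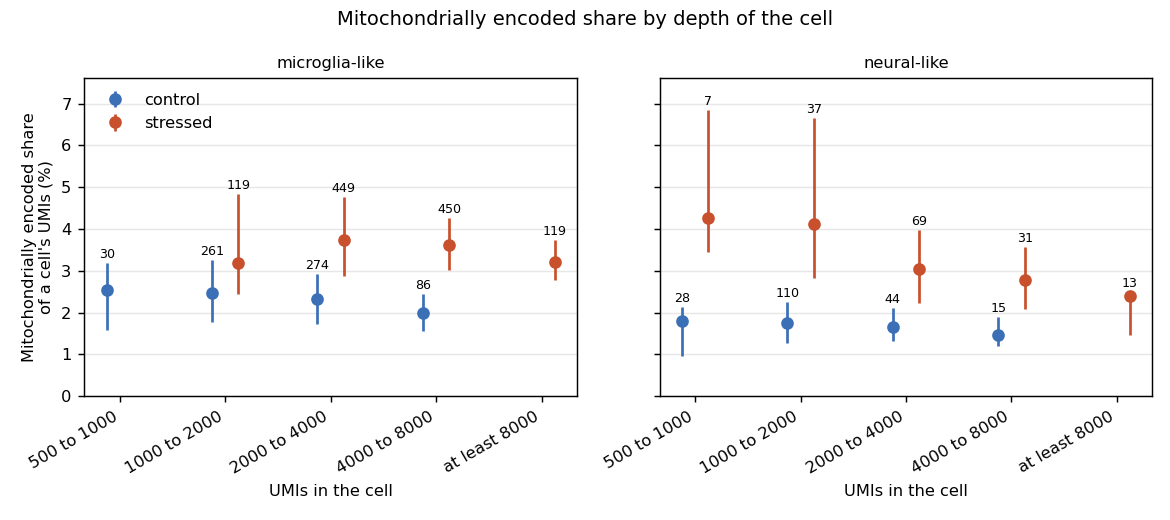
Mitochondrially encoded share of a cell's UMIs (percent) by the cell's UMI total, in microglia-like and neural-like cells of the control (blue) and stressed (red) libraries. Points are medians, bars the quartiles over cells and numbers the cells. At 2000 to 4000 UMIs the microglia-like medians were 2.31% and 3.74%, and the neural-like medians 1.65% and 3.05%.

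The mitochondrial and nuclear shares did not run together from cell to cell. Their Spearman correlation was −0.18 over the 653 control and −0.09 over the 1139 stressed microglia-like cells, a weak relation in sparse counts that is given only as a description. Malat1, whose share is used as a sign of intact nuclei, had a median share of 0.97% in both libraries when rounded (0.973 and 0.968%). These medians are over cells of all depths, and the Malat1 share was lower in deeper cells of each library. At matched depth the stressed cells had the higher Malat1 median, 1.73% against 1.28% for control cells of 1000 to 2000 UMIs. The values were 1.20% against 0.925% at 2000 to 4000 UMIs, and 0.860% against 0.587% at 4000 to 8000 UMIs. With cells lacking a Malat1 UMI left out, the mitochondrial median share was 2.31% in 634 control and 3.54% in 1080 stressed microglia-like cells. Cells with Xist and no Y-linked UMI gave 2.26% (220 cells) and 3.53% (1067 cells). The higher mitochondrial median of the stressed library was thus also present without the Malat1-free cells and within cells of one inferred sex.

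Of the nuclear members 3 lie on the X chromosome: Ndufa1 (log2 ratio −0.16), Ndufb11 (−0.14) and Cox7b (0.20). The libraries differed in the share of cells with Xist, and none of the 3 passed the limit.

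Cells with a UMI of Mki67 or Top2a, which mark dividing cells, were compared with the other microglia-like cells of the same library. The mitochondrial members were 0 higher and 0 lower of 13 in each library, with median log2 ratios of −0.15 (112 control cells with, 541 without) and −0.19 (246 with, 893 without). The nuclear members had a median of 0.13 in each library, with 4 of 77 higher in the control (Ndufa5, Atp5o, Cox7a1 and Cox6b2), 2 of 75 in the stressed library (Ndufa5 and Cox7a1), and 0 lower in each. The background was 20.1% higher and 16.5% lower in the control and 14.4% and 5.96% in the stressed library, so the counts of members were below it. Ndufa5, an accessory subunit of the matrix arm of complex I, was higher in the dividing cells of both (210 to 357 CPM and 200 to 302 CPM), as was Cox7a1 on small counts (17 and 10 UMIs, and 24 and 25 UMIs). The cells with Mki67 or Top2a were also deeper (median 3216 against 2014 UMIs in the control, 5314 against 3692 in the stressed library), and the part of depth in these values was not tested.

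Neural-like and microglia-like cells differed in the balance of mitochondrial and nuclear messages within a library. Relative to microglia-like cells, the neural-like cells had lower mitochondrial levels (median log2 ratios of −0.65 for the control and −0.43 for the stressed library) and higher nuclear levels (0.33 and 0.29). The nuclear medians were below those of all 9251 features of at least 10 CPM (0.41 and 0.43). Of 76 measured nuclear members 14 were at least 1.5 times higher in both libraries and 1 lower, and of 13 mitochondrial members 0 higher and 3 lower, against 37.7% higher and 18.9% lower over all features. The nuclear count of higher members is thus under the background share. The mitochondrial count of 3 lower of 13 is near the background share, so no more is read from that count.

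The nuclear members that were higher in neural-like cells included these of complex I: Ndufa5, Ndufa7, Ndufa11, Ndufa12, Ndufb2, Ndufb6, Ndufb9, Ndufc1, Ndufc2, Ndufs4 and Ndufs6. They were 11 of 35, a share that is also under the background of 37.7%. The others were Uqcrh, Cox7a2 and Atp5s. Ndufa5 was at 246 CPM in microglia-like and 627 CPM in neural-like cells of the control (log2 ratio 1.35, 1.12 to 1.57), and at 230 and 507 CPM in the stressed library (1.14, 0.96 to 1.31). Ndufb6, an accessory membrane subunit, was at 101 and 225 CPM and at 98.2 and 179 CPM. Cox7a2, the form of subunit 7a found in most tissues, was at 666 and 1263 CPM in the control (0.92, 0.77 to 1.07) and at 630 and 1126 CPM in the stressed library (0.84, 0.72 to 0.95). Atp5s was the most uneven (1.81 and 1.68) but rested on 10 and 15 neural UMIs. Among the members that stayed within 1.5 times in at least 1 library were Uqcrc1, a core protein of complex III (−0.82 and −0.50), Cox6c (0.49 and 0.54) and Atp5k (0.55 and 0.63). In complex II the differences were −0.24 and −0.49 for Sdhd and 0.32 and 0.24 for Sdha.

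Among members lower in neural-like cells, Ndufa9, an accessory subunit at the joint of the complex I arms, was at 57.7 and 25.3 CPM in the control and at 63.5 and 34.9 CPM in the stressed library, on 11 and 23 neural UMIs. mt-Nd5 was at 285 and 168 CPM in the control and at 504 and 247 CPM in the stressed library, and mt-Atp8 at 374 and 214 CPM and at 598 and 349 CPM. mt-Nd6 was at 90.4 and 23.0 CPM and at 78.9 and 39.5 CPM. mt-Cytb showed the smallest class difference of the 13 (log2 ratio −0.07, −0.17 to 0.03, and 0.01, −0.05 to 0.07). The neural-like cells had fewer UMIs per cell than the microglia-like cells of their library (medians 1564 against 2160, and 3043 against 3986). Among cells of 2000 to 4000 UMIs the median mitochondrial share was 1.65% in neural-like and 2.31% in microglia-like control cells, and 3.05% and 3.74% in stressed ones. The nuclear share in the same cells was 4.52% against 3.25%, and 4.18% against 2.72%. The lower mitochondrial and higher nuclear shares were thus also seen at matched depth.

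**Figure D5:**
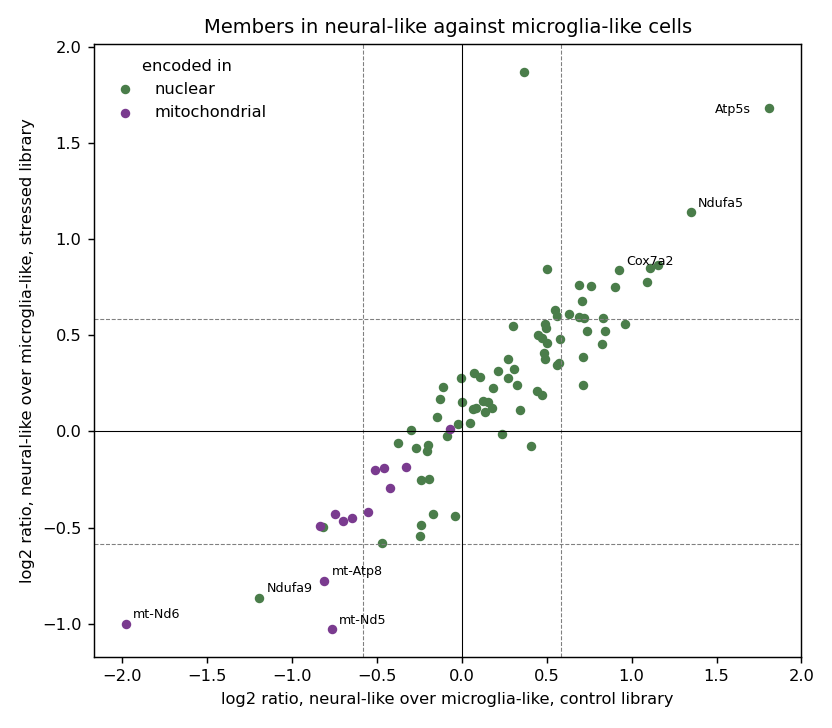
Log2 ratio of neural-like over microglia-like cells in the control (x axis) and stressed (y axis) library for each measured member, mitochondrially encoded in purple and nuclear in green, with dashed lines at 1.5-fold. Mitochondrial members lie to the lower left (medians −0.65 and −0.43) and nuclear members mostly to the upper right (0.33 and 0.29).

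Border-associated macrophage-like cells were closer to microglia-like cells. The mitochondrial medians were −0.29 (control) and −0.27 (stressed), and the nuclear medians 0.20 and 0.09. Past 1.5-fold in both libraries were Cox7a1 as higher (16.1 and 49.6 CPM, and 9.40 and 27.4 CPM, from 15 and 4 border-associated UMIs) and Ndufa9 and mt-Nd4 as lower, against 8.19% higher and 13.2% lower of 7322 features. mt-Nd4 was at 2486 and 1530 CPM in the control and at 3475 and 2267 CPM in the stressed library.

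Several subunits exist in alternative forms, and in microglia-like cells the common forms of subunits 4, 6a and 6b were far above their tissue-specific forms. Cox4i1, the common form of subunit 4, was at 811 CPM in each microglia-like library (log2 ratio 0.00, −0.09 to 0.09), while Cox4i2, a form known from lung and vessel wall cells, had 1 and 15 UMIs. Cox6a1 was at 287 and 280 CPM against 10.1 and 6.91 CPM of its muscle form Cox6a2. Cox6b1 was at 1130 and 1027 CPM against 8.92 and 7.48 CPM of its testis form Cox6b2. Cox8b and Cox8c had 0 UMIs, with exact upper limits of 2.19 CPM in the control and 0.708 CPM in the stressed microglia-like cells. Ndufa4, a subunit of complex IV despite its name, was at 867 and 896 CPM.

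Ndufa4l2, a hypoxia-inducible relative of Ndufa4 known from mural cells of vessels, had 0 and 7 UMIs in all microglia-like cells. The few vascular-like cells (4 and 6) held 5 and 29 UMIs of it, 262 CPM (85.1 to 612) and 696 CPM (466 to 1000). Cox4i2 had 1 and 11 UMIs in the same cells, 52.4 and 264 CPM. With so few cells these values describe those cells, not the vessel wall.

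Genes around the respiratory chain were taken from lists outside the symbol rule. In microglia-like cells the assembly factors were 3 higher (Ndufaf1, Foxred1 and Coa7) and 2 lower (Ttc19 and Atpaf2) of 38 measured (median log2 ratio −0.08), each on under 100 UMIs in either library. The genes of mitochondrial DNA copying, transcription and RNA care were 1 higher and 1 lower of 19 (0.04), the lower one being Polg2 on 17 and 35 UMIs. Tfam, which packages mitochondrial DNA and starts its transcription, was the higher one, at 11.9 CPM (20 UMIs) and 22.4 CPM (117 UMIs), a log2 ratio of 0.92 (0.22 to 1.68). Polrmt, the mitochondrial RNA polymerase, had 12 and 36 UMIs (7.14 and 6.91 CPM), and Lrpprc and Slirp, which bind and stabilise mitochondrial messages, were at 19.6 and 23.2 CPM and at 117 and 130 CPM.

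The citric acid cycle list was 0 higher and 0 lower of 19 (median 0.04), the nuclear regulators 0 and 0 of 8 (−0.09), cytochrome c and partner proteins 0 and 0 of 10 (−0.09), and carriers, import and inner membrane 0 and 1 of 23 (0.05). The one was Timm23, a channel of the import machinery, with 32 and 48 UMIs (log2 ratio −1.05, −1.72 to −0.36). Cycs, cytochrome c itself, was at 397 and 351 CPM (−0.18, −0.31 to −0.05). These shares stand beside the 3.33% and 8.13% of all features. The dissociation response list was 2 higher (Jun and Junb) and 1 lower (Nfkbia) of 11, and its part in the results was not tested.

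The promoters of the nuclear members were searched for the letters of factors known to bind respiratory genes. A link between these letters and the ratios above was not tested. RefSeq promoter windows of GRCm38.p6 (250 bases before to 50 after the start) matched 68 of the 84 nuclear members by gene ID, symbol or synonym. Each was searched on both strands. The NRF1 letters (GCGCA, then any base, then GCGC) were found in 17 of them (25%) and in 7.17% of 17492 protein-coding genes. The YY1 letters AAGATGGC were found in 10 (14.7% against 3.57%), the GABPA letters CCGGAAGT in 5 (7.35% against 5.69%) and the SP1 letters GGGCGG in 28 (41.2% against 49.2%). A match is a string of letters, not a shown binding site, and overlaps between motifs were not removed. For 3 abundant members with a match, the 120 bases before the start are shown 5′ to 3′ on the gene's strand, with the match in capitals.
Atp5g2 (NRF1 letters, chr15:102671048-102671167, minus strand): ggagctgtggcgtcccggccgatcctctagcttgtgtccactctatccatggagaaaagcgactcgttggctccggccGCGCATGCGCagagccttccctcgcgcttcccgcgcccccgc
Atp5k (NRF1 letters, chr5:108434400-108434519, minus strand): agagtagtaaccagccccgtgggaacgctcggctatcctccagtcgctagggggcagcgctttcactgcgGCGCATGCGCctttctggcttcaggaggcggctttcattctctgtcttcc
Uqcr11 (GABPA letters, chr10:80406822-80406941, minus strand): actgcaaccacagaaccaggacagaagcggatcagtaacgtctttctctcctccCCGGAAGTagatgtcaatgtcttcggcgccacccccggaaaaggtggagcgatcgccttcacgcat
The matches start 42, 50 and 66 bases before the start site. In microglia-like cells these genes had log2 ratios of −0.21 (Atp5g2), −0.15 (Atp5k) and −0.12 (Uqcr11), all within the limit.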

How the data were processed

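Deposited values were raw UMI counts per gene and barcode of 10x Genomics 3′ v3 libraries, made by software that the file headers give as version 3.0.0. The submitters' processing notes list, with no order, GRCm38.p5 (mm10), Seurat 2.4, STAR and Cell Ranger 3.0.0. How reads with several matches were treated is not given in the sources used here. Members, lists and tests were chosen with earlier results of these data known.

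Cells with at least 500 genes were gated: at least 3 markers of a class detected and at least 2 more than of any other class, a rule set after the files were seen. No filter on mitochondrial share was used, since it would select on the members. Doublets were kept, and removal of the highest 3.5% of Scrublet scores was an alternative. Counts were summed per class and library and divided by the class total (CPM). With 1 library per group no count model was fitted. Ratios have exact conditional, sums exact Poisson and shares exact Clopper-Pearson intervals (95%). A sum of 0 was set to 3 counts, and no ratio was made where both sums were at most 3. The count step was tested on simulated data.

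The named genes were, by rule, all mitochondrial members, the 2 most abundant nuclear members per complex, every nuclear member past 1.5 times, the 2 per complex differing most between neural-like and microglia-like cells, and alternative subunit forms. Others were chosen after their values were seen. Alternatives were other scalings (edgeR 4.0.16, DESeq2 1.42.0), cell filters, depths, gates, Leiden clusters (scanpy 1.11.5) made without the members, and gene minimums. Copies were found with blastn 2.17.0 among annotated transcripts.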

Additional observations from a re-analysis of the deposited data

Results flagged for a closer look

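Cox5a, a nuclear subunit next to the catalytic core of complex IV, had log2 ratios of opposite sign in 2 cell classes. Their counting intervals lay on either side of 0. In microglia-like cells it was at 563 CPM in the control and 626 CPM in the stressed library (947 and 3265 UMIs, log2 ratio 0.15, 0.05 to 0.26). In neural-like cells it was at 749 and 595 CPM (326 and 392 UMIs, −0.33, −0.55 to −0.11). Both values were within 1.5 times, the intervals cover counting error only, and the difference between the classes was not tested. The ratios of Cox5a are not given for cells of matched depth, so their signs there are not known. Border-associated macrophage-like cells had 691 and 603 CPM (−0.20, −0.57 to 0.17). It was the only member of at least 50 CPM in both classes whose intervals lay apart from 0 in this way.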

How the results depend on the processing

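No paired analysis was possible because each group has 1 library. In microglia-like cells the mitochondrial median log2 ratio (0.63) kept its direction in 19 alternatives, from 0.56 to 0.85. It was 0.74 with TMM and with DESeq2 factors, 0.71 without mitochondrial and ribosomal UMIs in the total, 0.72 with at least 1000 genes, 0.74 in cells of 2000 to 4000 UMIs and 0.85 in cells of 4000 to 8000 UMIs. It was 0.56 both with at most 5% mitochondrial UMIs per cell, a filter that removes high members by construction, and with a stricter gate. The nuclear median (−0.04) ranged from −0.24 to 0.07 and so changed sign within the limit. The difference of the medians (0.67) ranged from 0.60 to 1.03, at 0.97 and 1.03 in cells of 2000 to 4000 and 4000 to 8000 UMIs. The count of members past 1.5 times higher (8) ranged from 5, with the stricter gate, to 11. The count lower (1) was 0 at 50 CPM, 2 with at least 1000 genes or no minimum, 3 with the stricter gate, in cells with Xist and no Y-linked UMI and in cells of 4000 to 8000 UMIs, and 4 at 2000 to 4000 UMIs. The control mitochondrial share per microglia-like cell (2.32%) was 2.17% with at least 1000 genes and 1.98% at 4000 to 8000 UMIs. The stressed share (3.56%) was 3.40% with at most 5% mitochondrial UMIs, 3.74% at 2000 to 4000 UMIs and 3.71% without Mki67 and Top2a. The border-associated control share (1.99%) was 1.73% with Xist and no Y-linked UMI, and the neural-like control share (1.68%) was 1.49% with at least 1000 genes. The causes were not tested. Cells of 4000 to 8000 UMIs and cells with a Malat1 UMI were chosen after seeing the data.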

Other observations

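Cells without a Malat1 UMI were set beside the others. Among microglia-like cells they numbered 19 of 653 in the control (2.91%) and 59 of 1139 in the stressed library (5.18%). Their median mitochondrial shares were 2.56% (control, 1.23 to 4.46%) and 4.58% (stressed, 3.97 to 4.98%), beside 2.31% and 3.54% in the other cells. The control interval covers the value of the other cells. Their nuclear respiratory shares were also higher, 3.93% against 3.06% (control) and 3.67% against 2.94% (stressed). So were their ribosomal shares, 20.6% against 17.7% and 25.3% against 20.8%. Their median depths were 1467 and 2204 UMIs. Among neural-like cells those without a Malat1 UMI were 2.48% of control (5 cells) and 14.6% of stressed cells (23 cells).

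The 7 stressed erythroid-like cells had a median mitochondrial share of 5.71% and a nuclear respiratory share of 1.23%, with haemoglobin at 59.6% of their UMIs. The 6 stressed vascular-like cells had a median mitochondrial share of 4.57% and a nuclear share of 3.75%. Barcodes under 500 genes, which entered only the alternative without a minimum of genes, had median mitochondrial shares of 2.32% (88 control) and 0.777% (48 stressed), with haemoglobin at 39.4% and 72.5% of their UMIs.

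Cells with over 10% mitochondrially encoded UMIs were 0 of the 1068 kept in the control and 12 of the 1419 kept in the stressed library. Most of the 12 were not microglia-like, since leaving such cells out took the stressed microglia-like cells from 1139 to 1138.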
